A study of Homo sapiens with 2 samples.

Results

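Interferon-stimulated genes are the genes that cells switch on when they sense interferon, and the results below are about 40 of them, a fixed list of antiviral effectors together with their transcription factors. The list was given by gene symbol, and all 40 symbols matched an Ensembl identifier among the 58051 genes counted. RNA was sequenced from 1 library of BEAS-2B cells made to overexpress TRPV3, a calcium-permeable cation channel (TRPV3-OE, untreated, between passage 4 and 8), and from 1 library of parental BEAS-2B cells (WT, untreated, between passage 20 and 30). BEAS-2B is an immortalised line of human bronchial epithelium. Culture was in LHC-9 on plates with a collagen and fibronectin coat, up to confluence. How the overexpressing line was derived is not given in the sources used here. Passage number moved with genotype, so the effects of the pair cannot be told apart.

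Interferons bind receptors at the cell surface, and the kinases JAK1 and TYK2 then activate factors of the STAT family. The complex ISGF3, of which STAT2 and IRF9 are parts, binds the interferon-stimulated response element (ISRE) in target promoters, while STAT dimers bind the gamma-activated site (GAS). The induced proteins detect viral nucleic acid, block virus entry, degrade RNA or modify other proteins, and many of them are also present at a low level in cells that have met no virus.

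Gene counts summed to 17477953 in the TRPV3-OE library and 17450658 in the parental library. TRPV3 itself had 54077 counts in TRPV3-OE cells and 26 in parental cells. With 1 library per group there is no spread between replicates, so no p-value is given and no difference has a replicate check. Levels are counts per 1000000 counts after scaling (CPM), and ratios are log2 of TRPV3-OE over parental. Brackets after a log2 ratio hold its exact 95% interval, which covers counting error only. PCR copies of a fragment are not independent molecules. The 7 epithelial markers, among them KRT8, KRT18, EPCAM and CDH1, all had between 1580 and 19580 counts in TRPV3-OE cells and between 2024 and 22652 in parental cells. The 8 immune markers summed to 26.1 CPM in TRPV3-OE cells and 4.61 CPM in parental cells. CD14 held 460 of their counts in TRPV3-OE cells and 72 in parental cells, and PTPRC, LYZ, CD3E and TYROBP were at 0 in both libraries. The 6 fibroblast markers summed to 124 CPM in TRPV3-OE cells and 97.0 CPM in parental cells, with LUM at 0 in both. FBLN1 held 1913 of their counts in TRPV3-OE cells and 1245 in parental cells. COL1A1 went the other way, with 285 counts in TRPV3-OE cells and 410 in parental cells. COL1A2, DCN and PDGFRA had at most 5 in either library. The 4 endothelial markers summed to 3.26 CPM in TRPV3-OE cells and 16.7 CPM in parental cells, with KDR at 0 in both. CDH5 held 35 of their counts in TRPV3-OE cells and 268 in parental cells. PECAM1 had 23 counts in TRPV3-OE cells and 14 in parental cells. The immune, fibroblast and endothelial sums thus rest on few genes and do not measure the content of such cells. The part of immune, fibroblast or endothelial cells in the results was not tested. In bulk RNA, fewer cells expressing a gene and less of its RNA per cell cannot be told apart.

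Many interferon-stimulated genes were lower in TRPV3-OE cells and none was 2-fold higher. Of the 40 genes, 28 had at least 100 counts summed over both libraries and are called measured. In TRPV3-OE cells 11 of these lay at least 2-fold lower, while 0 lay at least 2-fold higher. That is 39.3% lower and 0% higher, against 5.35% lower and 5.31% higher among all 11466 measured genes. The median log2 ratio of the 28 was −0.61, with quartiles of −1.13 and −0.21, against a median of −0.03 for all measured genes. Counting intervals lay wholly below a log2 ratio of 0 for 22 of the 28 and wholly above it for 2, against 38.9% and 33.8% of all measured genes. The 11 genes were IRF7, RIGI, DDX60, IFITM2, IFITM3, MX1, ISG15, TRIM21, TRIM22, IFI6 and IFI35. Nearest to the 2-fold limit were TRIM22 at −1.03, RIGI at −1.04 and ISG15 at −1.05 on the inside and ISG20 at −0.68 on the outside. Scaled by total counts, TRIM22, RIGI and ISG15 were no longer 2-fold lower. Summed over all 40 genes the level was 838 CPM in TRPV3-OE cells and 1270 CPM in parental cells. Without IFITM3, the most abundant of them, the sums were 709 CPM in TRPV3-OE cells and 989 CPM in parental cells.

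**Figure D1:**
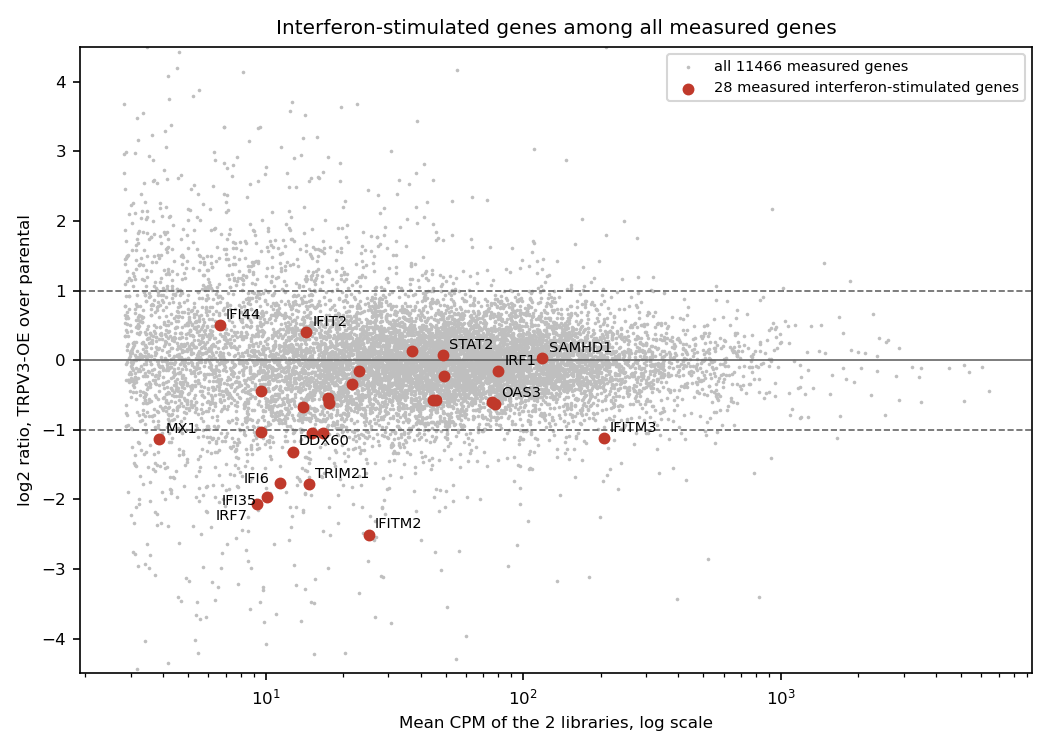
Log2 ratio of TRPV3-OE over parental against the mean CPM of both libraries (log axis) for all 11466 measured genes (grey) and 28 measured interferon-stimulated genes (red), with dashed lines at 2-fold. Of the red points 11 lie below the lower line and 0 above the upper one, and 48 grey points lie beyond the axis limits of 4.5 in either direction.

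The factors that drive the response divided. IRF7, the factor that amplifies type I interferon production (ENSG00000185507), lies on the minus strand of chromosome 11 from 612553 to 615999 in GRCh38. It had 64 counts in TRPV3-OE cells against 257 in parental cells. That is 3.59 CPM in TRPV3-OE against 15.01 CPM in parental cells, or 4.18-fold lower, with a log2 ratio of −2.06 (−2.48 to −1.66). STAT2, a subunit of ISGF3, had 888 counts in TRPV3-OE cells against 813 in parental cells, and its interval held 0 (−0.07 to 0.21). IRF1, an activator that acts early in the response to interferon gamma, had 1342 counts in TRPV3-OE against 1443 in parental cells, a log2 ratio of −0.16 (−0.27 to −0.05). STAT2 and IRF1 were thus within 2-fold, while IRF7 was lower in TRPV3-OE cells. IRF9, the DNA-binding subunit of ISGF3, was below the minimum with 42 counts in TRPV3-OE cells and 37 in parental cells (0.13, −0.55 to 0.80). An annotated gene on the same strand covers 48.4% of the exon bases of IRF9, and reads within both were left out of the counts, so its level is uncertain.

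**Figure D2:**
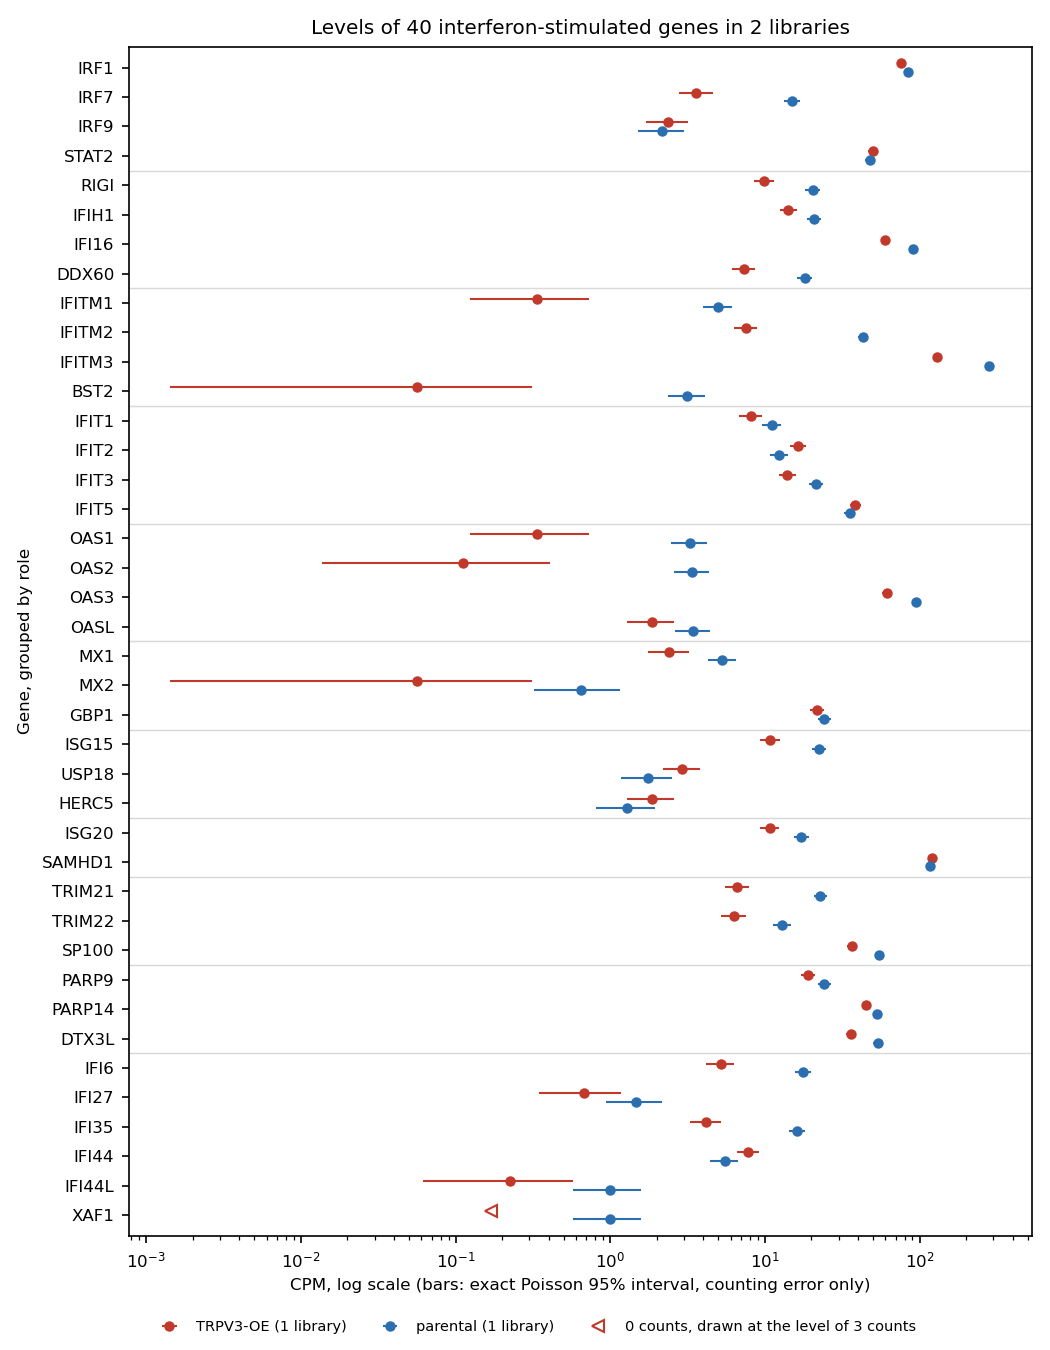
CPM (log axis) of all 40 genes in the TRPV3-OE library (red) and the parental library (blue), grouped by role, with exact Poisson 95% intervals. The largest distances between red and blue are at BST2 (0.0562 CPM in TRPV3-OE and 3.15 CPM in parental) and OAS2 (0.112 CPM in TRPV3-OE and 3.39 CPM in parental), while STAT2, IFIT5 and SAMHD1 have nearly the same level in both. XAF1, at 0 counts in TRPV3-OE cells, is drawn at the level of 3 counts.

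The response element is present in most of these promoters, whatever their ratio. Promoters of RefSeq on GRCh38.p14, from 250 bases before to 50 bases after the start, were found for 32 of the 40 genes, which have 41 such promoters. IRF7, IFITM2, IFIT2, OAS2, OASL, MX2, USP18 and TRIM22 had no entry. The core of the ISRE (GAAA, any 2 bases, then GAAA, on either strand) was in 26 of the 41 promoters (63.4%), against 3.57% of all 35116 promoters. The core of the GAS (TTC, any 3 bases, then GAA, which is its own reverse complement) was in 11 of the 41 (26.8%), against 7.66% of all promoters. By gene, the ISRE core was in 6 of 8 genes at least 2-fold lower, 11 of 16 within 2-fold and 5 of 8 below the minimum. The GAS core was in 3 of 8, 2 of 16 and 5 of 8 of the same groups. A match describes the sequence and is not evidence of binding.

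The 170 bases before the start are shown for 10 genes, with each match that lies wholly within them in capitals. The first set holds ISRE cores of genes that had lower counts in TRPV3-OE cells, namely IFITM1 (chr11:313870-314039, plus strand), IFITM3 (chr11:320861-321030, minus strand), BST2 (chr19:17405631-17405800, minus strand), ISG15 (chr1:1013327-1013496, plus strand) and IFI6 (chr1:27672193-27672362, minus strand). IFITM1 has another match that crosses its start, and BST2 and ISG15 have matches that overlap each other.
IFITM1: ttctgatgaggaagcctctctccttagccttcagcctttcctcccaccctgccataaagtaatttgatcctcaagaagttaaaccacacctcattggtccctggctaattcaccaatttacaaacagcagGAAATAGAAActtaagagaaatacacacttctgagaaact
IFITM3: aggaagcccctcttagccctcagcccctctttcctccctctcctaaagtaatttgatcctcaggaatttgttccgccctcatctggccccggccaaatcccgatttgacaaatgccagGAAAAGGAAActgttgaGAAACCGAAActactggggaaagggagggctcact
BST2: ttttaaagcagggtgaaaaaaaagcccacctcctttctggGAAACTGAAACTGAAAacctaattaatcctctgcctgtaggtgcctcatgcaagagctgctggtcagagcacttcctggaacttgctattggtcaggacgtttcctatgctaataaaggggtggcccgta
ISG15: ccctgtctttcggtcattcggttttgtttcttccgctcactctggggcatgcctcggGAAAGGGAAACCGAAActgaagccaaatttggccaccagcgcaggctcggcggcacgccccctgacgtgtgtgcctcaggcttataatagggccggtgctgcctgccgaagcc
IFI6: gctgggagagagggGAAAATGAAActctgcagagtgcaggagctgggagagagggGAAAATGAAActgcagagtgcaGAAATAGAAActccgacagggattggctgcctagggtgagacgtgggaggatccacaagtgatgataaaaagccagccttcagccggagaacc

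The second set holds ISRE cores of genes within 2-fold, shown because the same letters stand in them: IFIT1 (chr10:89392453-89392622, plus strand), IFIT5 (chr10:89414398-89414567, plus strand) and OAS3 (chr12:112938304-112938473, plus strand). In IFIT1 and IFIT5 the match is on the opposite strand. IFIT5 has another match that crosses its start.
IFIT1: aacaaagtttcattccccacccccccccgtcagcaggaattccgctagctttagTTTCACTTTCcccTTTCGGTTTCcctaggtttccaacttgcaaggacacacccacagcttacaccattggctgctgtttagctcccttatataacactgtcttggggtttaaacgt
IFIT5: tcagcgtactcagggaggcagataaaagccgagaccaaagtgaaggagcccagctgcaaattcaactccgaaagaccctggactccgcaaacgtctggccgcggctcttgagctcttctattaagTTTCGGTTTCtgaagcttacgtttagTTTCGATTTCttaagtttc
OAS3: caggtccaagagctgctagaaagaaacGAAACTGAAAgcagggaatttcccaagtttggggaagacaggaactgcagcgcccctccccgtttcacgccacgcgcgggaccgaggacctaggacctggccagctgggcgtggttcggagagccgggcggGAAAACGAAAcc

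In the third set the capitals mark GAS cores, in IRF1 (chr5:132490774-132490943, minus strand), within 2-fold, and OAS1 (chr12:112906792-112906961, plus strand), which had few counts and was lower in TRPV3-OE cells. Neither promoter holds the ISRE core in the form searched. OAS1 does hold GAAAC followed by GAAA near its start, a closer spacing than the search allowed.
IRF1: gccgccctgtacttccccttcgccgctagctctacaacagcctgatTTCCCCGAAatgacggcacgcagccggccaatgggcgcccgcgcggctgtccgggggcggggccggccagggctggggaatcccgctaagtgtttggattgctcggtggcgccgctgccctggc
OAS1: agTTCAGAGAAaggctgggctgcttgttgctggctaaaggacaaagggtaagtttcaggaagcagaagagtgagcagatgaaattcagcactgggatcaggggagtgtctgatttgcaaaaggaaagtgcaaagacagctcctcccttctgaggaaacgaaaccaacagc

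Membrane proteins that restrict virus entry or release were lower in TRPV3-OE cells, with a median log2 ratio of −1.82 over the 2 that were measured. Both lie on the short arm of chromosome 11, where the median of the 50 nearest measured genes was −0.68. After subtraction of that median IFITM2 was at −1.83 and IFITM3 at −0.45. IFITM3, which blocks the fusion of virus with endosomes, had 2298 counts in TRPV3-OE cells against 4820 in parental cells, or 129 CPM in TRPV3-OE against 281 CPM in parental cells. Its log2 ratio was −1.12 (−1.20 to −1.05). IFITM2, a close relative in late endosomes (chromosome 11, 307631 to 315272, plus strand), had 134 counts in TRPV3-OE against 733 in parental cells, the lowest ratio of a measured member at −2.51 (−2.78 to −2.24), or 5.69-fold lower. IFITM1, the member found mainly at the cell surface, had 6 counts in TRPV3-OE cells and 85 in parental cells (−3.88, −5.37 to −2.70). All 3 IFITM genes were therefore lower in TRPV3-OE cells by more than counting error. Of their transcripts' 50-base stretches, 35.2% in IFITM3, 34.3% in IFITM2 and 32.0% in IFITM1 also occur in another gene's transcripts. IFITM1 and IFITM2 also overlap on the same strand, over 32.5% of exon bases in IFITM1 and 22.7% in IFITM2. Reads that fit several genes were left out of the counts, so the levels of the 3 are uncertain. BST2, also called tetherin, holds budding virions at the cell surface and had 1 count in TRPV3-OE cells against 54 in parental cells (−5.81, −11.14 to −3.27). Its summed count of 55 is under the minimum, so it enters no count of 2-fold genes.

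All 4 nucleic acid sensors and their partners were lower in TRPV3-OE cells, with intervals below 0. RIGI (listed as DDX58 in older annotations) detects viral RNA with an uncapped end and had 176 counts in TRPV3-OE cells against 348 in parental cells (−1.04, −1.31 to −0.77). IFIH1, or MDA5, detects long double-stranded RNA and had 253 counts in TRPV3-OE against 356 in parental cells (−0.55, −0.79 to −0.31). IFI16, a nuclear DNA sensor, had 1068 counts in TRPV3-OE against 1558 in parental cells (−0.60, −0.71 to −0.49). RIGI was 2.06-fold lower, whereas IFIH1 and IFI16 stayed within 2-fold. DDX60, a helicase that has been linked to RIG-I signalling, had 130 counts in TRPV3-OE cells against 311 in parental cells (−1.31, −1.62 to −1.01).

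The IFIT proteins bind RNA, and IFIT1 is known for blocking translation of viral RNA that lacks the cap marks of the host. IFIT1 had 144 counts in TRPV3-OE cells against 189 in parental cells (−0.45, −0.77 to −0.13), and IFIT3, its binding partner, had 248 in TRPV3-OE against 367 in parental cells (−0.62, −0.86 to −0.39). IFIT2 had 291 in TRPV3-OE against 212 in parental cells (0.40, 0.14 to 0.66), and IFIT5 had 686 in TRPV3-OE against 605 in parental cells (0.13, −0.03 to 0.29). So IFIT1 and IFIT3 were lower, IFIT2 was higher and IFIT5 did not differ beyond counting error, and none of the 4 passed 2-fold. Summed over the family, the level was 76.9 CPM in TRPV3-OE cells and 80.2 CPM in parental cells. The 4 genes lie side by side on chromosome 10 between 89283694 and 89421001.

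The OAS enzymes make the 2-5A messenger that activates the nuclease RNase L. OAS3, the largest of them, was the only one measured, with 1089 counts in TRPV3-OE cells against 1613 in parental cells (−0.62, −0.74 to −0.51). OAS1 had 6 counts in TRPV3-OE against 56 in parental cells (−3.28, −4.78 to −2.07), and OAS2 had 2 in TRPV3-OE against 58 in parental cells (−4.91, −7.99 to −3.00). These neighbours on chromosome 12, between 112906777 and 113011723, thus differed in size of ratio, and the OAS1 and OAS2 intervals lie wholly below that of OAS3. OASL, which lacks the enzyme activity and lies apart on the same chromosome, had 33 counts in TRPV3-OE against 59 in parental cells (−0.89, −1.56 to −0.26).

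Among the large GTPases, MX1, which traps the nucleocapsids of influenza virus, had 43 counts in TRPV3-OE cells against 91 in parental cells (−1.14, −1.70 to −0.60). It was the only measured gene of the 40 whose count in either library was under 50. MX2, known for restriction of HIV, had 1 count in TRPV3-OE against 11 in parental cells (−3.52, −8.94 to −0.73). GBP1, a guanylate-binding protein induced mainly by interferon gamma, had 387 in TRPV3-OE against 414 in parental cells, with an interval that held 0 (−0.36 to 0.05). MX1 and MX2 were thus lower in TRPV3-OE cells and GBP1 was not detectably different at this depth.

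ISG15 is a ubiquitin-like protein that is joined to targets by a chain of enzymes, of which UBA7 is the E1, UBE2L6 the E2 and HERC5 the main ligase, and USP18 removes it. ISG15 had 193 counts in TRPV3-OE cells against 385 in parental cells (−1.05, −1.31 to −0.80). UBE2L6 had 184 in TRPV3-OE against 817 in parental cells (−2.21, −2.45 to −1.97), and UBA7 had 46 in TRPV3-OE against 173 in parental cells (−1.97, −2.47 to −1.49). The ratios of the modifier, its E1 and its E2 were therefore all at least 2-fold lower. For ISG15 the interval crossed the 2-fold limit, and scaled by total counts it was not 2-fold lower. HERC5 had 33 counts in TRPV3-OE against 22 in parental cells (0.53, −0.29 to 1.38), and USP18 had 52 in TRPV3-OE against 30 in parental cells (0.74, 0.06 to 1.44). Of these last genes, both under the minimum, USP18 was higher in TRPV3-OE cells by more than counting error, and HERC5 was not. USP18 shares 23.4% of its 50-base stretches with other genes, chiefly USP41, so its count is uncertain.

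TRIM proteins are ubiquitin ligases with antiviral roles. TRIM21, which binds antibody inside the cell, had 118 counts in TRPV3-OE cells against 391 in parental cells (−1.78, −2.09 to −1.48), or 3.45-fold lower. TRIM22 had 112 in TRPV3-OE against 220 in parental cells (−1.03, −1.37 to −0.70), and SP100, a scaffold of nuclear bodies, had 653 in TRPV3-OE against 938 in parental cells (−0.58, −0.73 to −0.43). The 3 were lower by more than counting error. Genes of ADP-ribosylation, which lie together on chromosome 3, were within 2-fold. PARP9 had 340 counts in TRPV3-OE cells against 414 in parental cells (−0.34, −0.55 to −0.13). DTX3L, the ligase that pairs with PARP9, had 640 in TRPV3-OE against 917 in parental cells (−0.58, −0.72 to −0.43), and PARP14 had 807 in TRPV3-OE against 912 in parental cells (−0.23, −0.37 to −0.09). These 3 were also lower by more than counting error, as were 38.9% of all measured genes.

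SAMHD1, which depletes the nucleotides that viruses need, was nearly equal with 2137 counts in TRPV3-OE cells and 2008 in parental cells (0.03, −0.05 to 0.12). ISG20, an RNA exonuclease, had 192 in TRPV3-OE against 295 in parental cells (−0.68, −0.95 to −0.41). Per kilobase of gene length, SAMHD1 had rank 2 of the 40 genes in TRPV3-OE cells at 23.8 CPM per kilobase and rank 4 in parental cells at 23.3. IFITM3 was first in both libraries, at 95.7 CPM per kilobase in TRPV3-OE cells and 209 in parental cells.

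Of the remaining interferon-induced proteins, IFI35, the partner of the signalling protein NMI, had 74 counts in TRPV3-OE cells against 277 in parental cells (−1.96, −2.35 to −1.59). IFI6, a small membrane protein that counters cell death, had 92 in TRPV3-OE against 302 in parental cells (−1.77, −2.12 to −1.43). IFI35 was thus 3.89-fold and IFI6 3.41-fold lower. IFI44 was higher, with 139 counts in TRPV3-OE against 94 in parental cells (0.51, 0.12 to 0.90), while its neighbour IFI44L had 4 in TRPV3-OE against 17 in parental cells (−2.14, −4.17 to −0.53). The intervals of these neighbours do not overlap, but relative to the median of the 50 nearest measured genes (0.52) IFI44 was at −0.01. IFI27 had 12 counts in TRPV3-OE against 25 in parental cells (−1.12, −2.24 to −0.07). XAF1, which promotes apoptosis, had 0 counts in TRPV3-OE cells and 17 in parental cells, so it was at least 5.89-fold lower against a floor of 3 counts in the TRPV3-OE library, or 0.168 CPM. That bound takes the parental count as exact. The upper end of the exact interval of XAF1, which covers counting error in both libraries, was a log2 ratio of −2.10, a smaller difference. In XAF1, 34.7% of 50-base stretches also occur in other genes' transcripts.

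**Figure D3:**
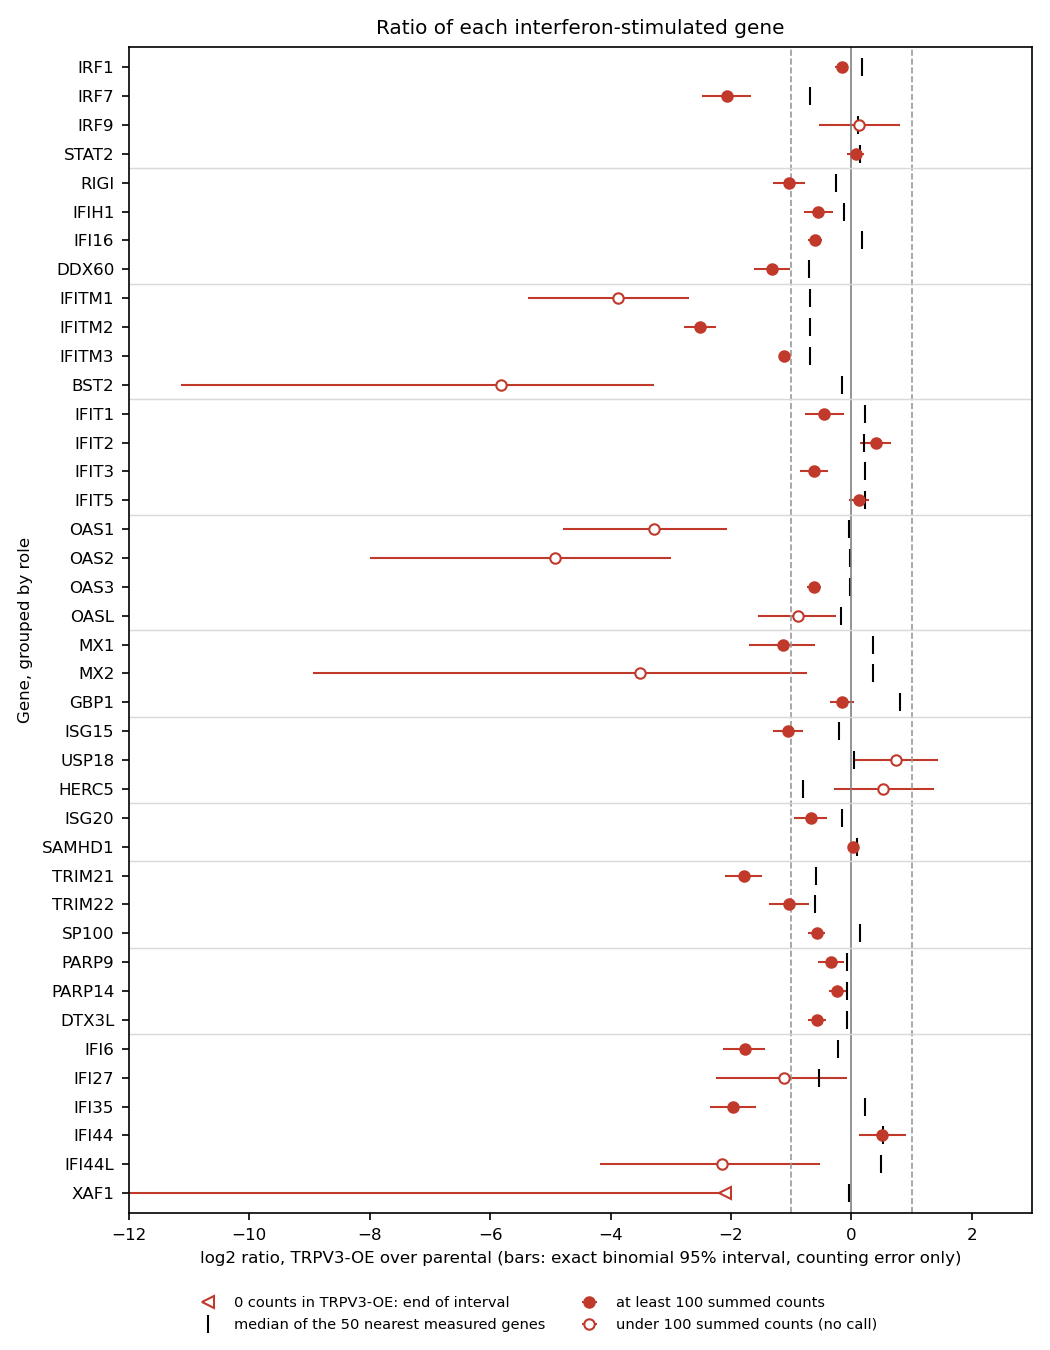
Log2 ratio of TRPV3-OE over parental for each of the 40 genes, grouped by role, with exact binomial 95% intervals. Filled points are the 28 measured genes and open points the 12 below 100 summed counts. Black ticks mark the median of the 50 nearest measured genes, and dashed lines mark 2-fold. IFITM2 has the lowest ratio of a filled point, at −2.51, and IFI44 the highest, at 0.51.

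Of the 12 genes below the minimum, with summed counts of 12 to 92, 9 had intervals wholly below 0, USP18 was above 0, and IRF9 and HERC5 held 0. Among the 17 measured genes within 2-fold, 11 had intervals below 0, IFIT2 and IFI44 lay above 0, and STAT2, IFIT5, GBP1 and SAMHD1 held 0. For all genes these shares were not worked out within the same classes, so neither count is set against a background. In 11 of the 40 genes over 5% of the 50-base stretches also occur, on either strand, in another gene's transcripts, so their counts may be uncertain. Besides the IFITM genes, USP18 and XAF1 these are IRF9 with 43.8%, TRIM22 with 13.4%, GBP1 with 9.62%, SAMHD1 with 9.54% and IFIT2 with 7.91%. The last is IRF1, with 1836 of 8352 stretches, chiefly shared with its antisense gene IRF1-AS1. Reads were counted by strand, and no annotated gene shares exon bases with IRF1 on its own strand. Sharing with an antisense gene at the same place need not make its count uncertain.

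Position in the genome moved with some of these ratios. IRF7, IFITM1, IFITM2, IFITM3, TRIM21 and TRIM22 lie on the short arm of chromosome 11, and the 5 of them that were measured were all at least 2-fold lower. The 208 measured genes of chromosome 11 below 53000000 had a median log2 ratio of −0.68, with 22.1% at least 2-fold lower. On the other chromosomes 6 of 23 measured interferon-stimulated genes (26.1%) were at least 2-fold lower, with a median of −0.58. The median of the 50 nearest measured genes ranged from −0.70 around DDX60 to 0.81 around GBP1. After subtraction of that local median, 6 of the 11 genes remained at least 2-fold lower, namely IRF7 (−1.38), IFITM2 (−1.83), MX1 (−1.49), TRIM21 (−1.19), IFI6 (−1.54) and IFI35 (−2.18). That is 6 of 28, against 3.74% of all measured genes lower and 5.08% higher after the same subtraction. IFITM3 (−0.45), TRIM22 (−0.42), DDX60 (−0.61), RIGI (−0.79) and ISG15 (−0.84) did not. The median of the 28 genes was −0.60 after the subtraction. GBP1, IFI44 and IFI44L lie where neighbours on chromosome 1 were higher in TRPV3-OE cells, and GBP1 was at −0.96 after the subtraction, against −0.15 before it.

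Receptors and kinases, the upstream part of the pathway, were within 2-fold. None of 9 receptor and kinase genes (0 lower, 0 higher) passed 2-fold, and their median was −0.00. Among all measured genes 5.35% lay at least 2-fold lower and 5.31% higher, so 0 of 9 does not set this list apart. IFNAR1, a chain of the type I interferon receptor, had 1622 counts in TRPV3-OE cells against 1201 in parental cells (0.38, 0.27 to 0.49). IFNAR2, the other chain, had 280 in TRPV3-OE against 284 in parental cells (−0.08, −0.32 to 0.17). JAK1 had 1747 in TRPV3-OE against 1683 in parental cells (−0.00, −0.10 to 0.10), and TYK2 had 1332 in TRPV3-OE against 1751 in parental cells (−0.45, −0.55 to −0.35). Both receptor chains and both kinases thus had counts in each library.

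Ligand transcripts were scarce. Of 9 interferon genes, 6 had 0 counts in both libraries, which by a floor of 3 counts allows up to 0.168 CPM in TRPV3-OE cells and 0.175 CPM in parental cells (exact Poisson limits of 0.207 in TRPV3-OE and 0.215 in parental cells). The 9 summed to 8 counts in TRPV3-OE cells and 27 in parental cells. IFNE held all 8 in TRPV3-OE cells and 24 in parental cells (−1.64, −3.01 to −0.44). Of the IFNA genes only IFNA1 and IFNA2 were on this list. Among 5 measured factors outside the 40 genes, IRF5 was 2.89-fold higher, with 186 counts in TRPV3-OE cells against 62 in parental cells (1.53, 1.11 to 1.97). IRF8, best known from blood cells, was picked out after its value was known and had 92 counts in TRPV3-OE against 1 in parental cells (6.47, 3.95 to 11.79). Its summed count of 93 is under the minimum, so it enters no count of 2-fold genes.

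Other interferon-stimulated genes, from a list that shares no gene with the 40, were lower in part. That list was written with earlier results of these data known, so it is no independent check. Of 27 measured, 8 lay at least 2-fold lower and 0 higher. That is 29.6% lower and 0% higher, against 5.35% and 5.31% of all measured genes. The median of the 27 was −0.63, against −0.03 for all measured genes. The 8 were APOL1, APOL2 and APOL6 (apolipoproteins L), PSMB9 (an immunoproteasome subunit), LAMP3, HERC6, SHFL and NMI. APOL1 had 63 counts in TRPV3-OE cells against 362 in parental cells (−2.58, −2.99 to −2.19), and PSMB9 had 159 in TRPV3-OE against 661 in parental cells (−2.11, −2.37 to −1.86). LAMP3, a lysosomal membrane protein, had 88 in TRPV3-OE against 365 in parental cells (−2.11, −2.46 to −1.77). NMI had 196 in TRPV3-OE against 403 in parental cells (−1.10, −1.35 to −0.85), beside its partner IFI35, which was also lower. APOL6 was 3.17-fold, HERC6 2.92-fold, APOL2 2.72-fold and SHFL, a ribosomal frameshift inhibitor, 2.45-fold lower. After subtraction of the local median HERC6 was at −0.76 and no longer 2-fold lower. Of the 27 genes 9 were then at least 2-fold lower, against 3.74% of all measured genes.

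Of 11 measured nucleic acid sensing genes outside the 40, 1 (9.09%) was at least 2-fold lower and 0 higher. Among all measured genes the shares were 5.35% and 5.31%, so this count does not set the list apart. The lower gene was TLR3, the endosomal sensor of double-stranded RNA. It had 71 counts in TRPV3-OE cells against 193 in parental cells (−1.50, −1.91 to −1.10), and was at −0.85 after subtraction of the local median. Intervals lay wholly below 0 for 7 of the 11, held 0 for 2 and lay wholly above it for MAVS (0.77) and STING1 (0.30). Of 8 measured feedback genes and regulators, 3 (37.5%) were at least 2-fold lower and 0 higher, against the same shares of all measured genes. They were SOCS3, an inhibitor of JAK signalling, and the ISG15 enzymes UBA7 and UBE2L6. SOCS3 had 80 counts in TRPV3-OE against 187 in parental cells (−1.28, −1.68 to −0.90). Over all 85 pathway genes outside the 40, 60 were measured, of which 12 lay at least 2-fold lower and 1 higher. That is 20.0% lower and 1.67% higher, against 5.35% and 5.31% of all measured genes. After subtraction of the local median 13 were at least 2-fold lower and 1 higher, against 3.74% and 5.08% of all measured genes.

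**Figure D4:**
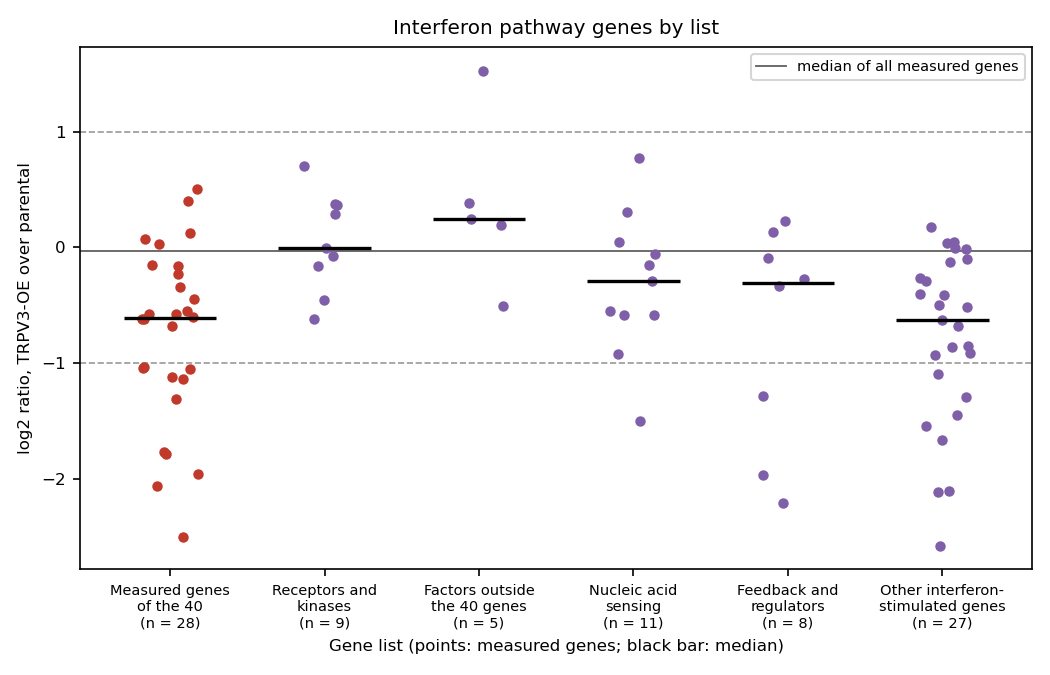
Log2 ratio of TRPV3-OE over parental (vertical axis) for measured genes of the interferon pathway by list, with a black bar at each list's median, a grey line at the median of all measured genes (−0.03) and dashed lines at 2-fold. The medians are −0.61 for the 28 measured of the 40 genes, −0.00 for receptors and kinases and −0.63 for other interferon-stimulated genes.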

How the data were processed

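RNA was sequenced from 1 TRPV3-OE and 1 parental library, grouped by the genotype label. The authors deposited raw gene counts, which per the file headers came from featureCounts 1.5.0-p3 with reads counted on the reverse strand. Gene models were Ensembl 87 on GRCh38.p7. Since the headers list no option for multi-mapping or overlapping reads, both kinds were left out by default. The submitters' processing notes also name STAR and DESeq2. The read length is not given in the sources used here.

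Counts were scaled with TMM factors (1.02 for TRPV3-OE, 0.981 for parental; edgeR 4.0.16, R 4.3.3), and no model was fitted. Log2 ratios carry exact conditional binomial (Clopper-Pearson) 95% intervals and CPM exact Poisson intervals. A gene was measured from 100 summed counts upwards. Every measured member, every 2-fold pathway gene and IFNAR1, IFNAR2, JAK1 and TYK2 were named by rule, and 1 further gene is not reported here. The local median used the 50 nearest measured genes. Of 58051 identifiers, 56948 matched a symbol. The 50-base stretches came from GENCODE transcripts, and motifs from RefSeq promoters. The calculation was tested on simulated data. Alternatives were 3 other scalings (1 with DESeq2 1.42.0), 5 counts as a prior, a summed minimum of 1, 20 or 500, fold limits of 1.5 and 4, and subtraction of the local median. The members and lists were chosen with earlier results of these data known. Calculations ran in Python 3.11.15 (scipy 1.17.1, numpy 2.4.6, pandas 2.3.3) and plots in matplotlib 3.10.9.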

Additional observations from a re-analysis of the deposited data

How the results depend on the processing

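No paired analysis was possible because there is only 1 library in each group, which also leaves no replicate to omit. The 11 interferon-stimulated genes at least 2-fold lower became 6 once the local median over 50 neighbours was subtracted, and 19, 17 and 5 with minimums of 1, 20 and 500 counts, as more or fewer genes qualify by construction, and 2 at 4-fold. Of all genes 18.9%, 7.06% and 3.65% were then 2-fold lower at those 3 minimums, with 40, 38 and 19 of the 40 genes measured, and 1.39% were 4-fold lower. RIGI, ISG15 and TRIM22 were no longer 2-fold lower when scaled by total counts, RIGI and TRIM22 with DESeq2 size factors, and TRIM22 by upper quartile or with a prior count of 5. The count of higher genes was 0 in every alternative run. The median log2 ratio of −0.61 became −0.79 with a minimum of 1 count and −0.76 as a mean. Of the pathway genes outside the 40, the 12 lower became 21 and 6 with minimums of 1 and 500 counts, 20 at 1.5-fold and 4 at 4-fold. The 1 higher became 4, 2 and 0 with minimums of 1, 20 and 500 counts, 3 at 1.5-fold and 0 at 4-fold. No scaling moved the median of all measured genes by more than 0.0539. Of 140 ratios of single genes under other settings, 127 stayed within their interval and 13 moved, all after subtraction of neighbours. In 4 of the 140 the sign changed, all within 2-fold and after that subtraction, with STAT2 at −0.08, IFIT5 at −0.10, SAMHD1 at −0.05 and IFI44 at −0.01, against 0.07, 0.13, 0.03 and 0.51 before it; the cause was not tested. Genes with few counts, such as MX2 and IFI27, have wide intervals that limit what their ratios show.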
